A study of Mus musculus with 8 samples.

Results

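The genes described here are p53 target genes other than the BCL2 family: Trp53 itself, its direct regulators, and genes that p53 is known to activate in growth arrest, DNA repair, stress sensing and death signalling. Members were taken from a list of 32 mouse symbols, each represented by its brightest array probe among probes whose RefSeq accession maps to the symbol. All 32 had a probe, out of 32970 genes and unnamed transcripts on the array, and 30 were measured, meaning that 1 group or both had a signal well above background on each of its 4 arrays. Rrm2b, a subunit of p53-inducible ribonucleotide reductase, and Eda2r, a receptor for ectodysplasin A2, were above background on 0 of 8 arrays and have no measured change. Although the list was drawn up for targets other than cell death regulators, it holds genes with a role in cell death, among them the death receptor genes Fas and Tnfrsf10b and the apoptosome gene Apaf1, and it holds Trp53, which is the regulator rather than a target.

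Haematopoietic stem and progenitor cells (HSPCs) came from femur and tibia marrow; all 4 mice were Runx1 Δ/Δ, and their background mixed C57Bl/6 with 129SvJ. After lineage depletion they were grown for 2 days with SCF, Flt3 ligand, IL-11 and IL-3. From each animal, 1 culture received a retrovirus with an shRNA against Pcgf1 and 1 a control shRNA, followed by puromycin (5 µg/ml) for 36 h, so that each group held 4 arrays and both groups carried the Runx1 deletion and the same drug selection. Runx1 is a transcription factor of blood cell development, and Pcgf1 belongs to the Polycomb complex PRC1.1. Neither the cell type in which Runx1 was deleted nor the sequence of either shRNA is stated here, and 1 shRNA against Pcgf1 was used. The age of the mice is not stated.

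The transcription factor p53 is held low in unstressed cells by MDM2, a ubiquitin ligase that p53 itself induces, and by the related inhibitor MDM4. DNA damage, oncogene signalling or ribosomal stress releases p53, which then binds a response element built of paired half-sites and activates genes for cell cycle arrest, repair, metabolism and apoptosis. In blood formation p53 helps to keep stem cells quiescent and removes damaged progenitors.

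To show what the binding sequence looks like in these genes, promoter windows from RefSeq (GRCm38.p6), from 250 bases before to 50 bases after the transcription start, were searched for the p53 half-site consensus, which reads the same on both strands. Windows were found for 25 of the 32 members. At least 1 match was present in 12 of their 31 windows (38.7%), against 8.36% of all 32851 windows and 6.97% of the windows of genes measured on these arrays. The 11 members with a match were Aen, Ccng1, Ei24, Gadd45a, Gtse1, Mdm2, Polk, Ppm1d, Rps27l, Sesn1 and Trp53. A match is a description of the letters and not evidence of binding, and elements outside the windows were not searched; those of Mdm2 and Gadd45a that are best known lie in introns. The windows of Mdm2 (chr10:117710709-117711008, minus strand), the main feedback regulator, Ccng1 (chr11:40755237-40755536, minus strand), a cyclin gene that is widely used as a readout of p53, and Gadd45a (chr6:67037358-67037657, minus strand), whose groups did not overlap on these arrays, are shown 5′ to 3′ with the matches in capitals.
Mdm2: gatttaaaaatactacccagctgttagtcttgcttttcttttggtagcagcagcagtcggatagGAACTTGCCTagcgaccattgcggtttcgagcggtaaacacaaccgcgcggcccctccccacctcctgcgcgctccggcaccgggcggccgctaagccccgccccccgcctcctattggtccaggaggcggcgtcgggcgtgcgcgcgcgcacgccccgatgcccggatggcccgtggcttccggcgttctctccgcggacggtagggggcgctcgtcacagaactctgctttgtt
Ccng1: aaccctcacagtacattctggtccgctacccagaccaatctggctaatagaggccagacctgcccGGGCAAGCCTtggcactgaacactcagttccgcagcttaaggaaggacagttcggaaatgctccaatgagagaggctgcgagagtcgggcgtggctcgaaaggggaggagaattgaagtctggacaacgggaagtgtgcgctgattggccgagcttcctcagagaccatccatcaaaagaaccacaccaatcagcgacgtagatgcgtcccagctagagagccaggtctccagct
Gadd45a: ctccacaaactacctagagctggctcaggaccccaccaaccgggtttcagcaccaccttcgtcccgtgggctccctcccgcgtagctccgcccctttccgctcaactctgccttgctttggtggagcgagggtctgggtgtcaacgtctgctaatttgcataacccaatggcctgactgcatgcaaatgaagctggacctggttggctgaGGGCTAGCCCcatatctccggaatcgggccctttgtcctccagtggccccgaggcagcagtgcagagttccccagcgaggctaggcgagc

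Between 54.8% and 62.0% of the 43379 non-control spots per array were well above background and 0 were saturated; precision is limited by there being 8 arrays. Levels are given as log2 of the processed spot intensity minus the 75th percentile of the array, so that 0 is that percentile, and changes as the Pcgf1 shRNA minus the control shRNA. Pcgf1 stood at −0.23 ± 0.18 (SD, n = 4) in the control cultures and −1.59 ± 0.17 (n = 4) under its own shRNA, so that 39.0% of the transcript was left (limma adjusted p 0.0197). The HSPC marker genes Kit, Cd34, Gata2 and Myb were above background on 8 of 8 arrays, and Cd34 rose by 0.94 (adjusted p 0.0251). Markers of maturing cells differed between the groups. For each list the signals of its measured markers were summed and the log2 of the sum was taken, so that bright markers weigh most. For 9 neutrophil markers it lay at 6.49 to 7.91 with the control shRNA and 3.97 to 5.72 with the Pcgf1 shRNA. For 6 erythroid markers it lay at 4.62 to 6.14 with the control shRNA and 2.99 to 5.46 with the Pcgf1 shRNA. For 6 monocyte and macrophage markers it lay at 5.62 to 6.53 with the control shRNA and 5.42 to 6.06 with the Pcgf1 shRNA. For 7 mast cell markers it lay at 4.92 to 5.44 with the control shRNA and 4.97 to 5.26 with the Pcgf1 shRNA. The markers that fell numbered 4 for neutrophils, 2 for mast cells and 0 for the erythroid and monocyte lists (limma). Of all genes 0.168% fell. At an unadjusted p under 0.05 there were 8 neutrophil, 3 mast cell, 1 erythroid and 4 monocyte markers, beside 12.2% of all genes. Ngp, among the neutrophil markers that fell, was well above background on 4 control arrays and 0 with the Pcgf1 shRNA. Ngp thus entered the test through the group where it was higher. Blocked by mouse, the counts were 8 for neutrophils and 3 for mast cells, where 2.41% of all genes fell. They were 2 for the erythroid list (Klf1 and Ermap) and 3 for the monocyte list (Ccr2, Klf4 and Irf8). A positive change was found for 1 neutrophil marker (0.34) and 2 mast cell markers (up to 0.25). Pax5 and Cd3g of the lymphoid markers and Col3a1 and Cdh5 of the stromal and endothelial markers were above background on 0 of 8 arrays. Of 6 lymphoid markers 3 were measured, at −2.46 to −2.20 with the control shRNA and −2.88 to −2.46 with the Pcgf1 shRNA. Of 6 stromal and endothelial markers 3 were measured, at 0.20 to 0.67 with the control shRNA and 0.56 to 0.92 with the Pcgf1 shRNA. In both lists 0 passed, and blocked by mouse 1 stromal or endothelial marker rose. The part of these shifts in the changes given below was not tested, and in bulk RNA fewer cells of a type and less RNA per cell cannot be told apart.

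A single p53 target gene, Perp, rose with the Pcgf1 shRNA, and no other of the 30 passed the test in either direction. Of the 30 measured members 1 rose and 0 fell in the limma fit (adjusted p 0.05, Benjamini-Hochberg over all genes tested), where 0.763% of all 17310 genes passed, 0.595% upward and 0.168% downward. At an unadjusted p under 0.05 there were 3 members, Perp and Xpc upward and Gadd45a downward, or 10.0% of 30, against 12.2% of all genes. Perp encodes a tetraspan membrane protein of desmosomes that is also an effector of p53 in apoptosis. With mouse as a block, which pairs both cultures of an animal, the count was the same, 1 up and 0 down, while the share of all genes that passed was 5.32%, 2.91% upward and 2.41% downward. At an unadjusted p under 0.05 the block gave 8 members (26.7%), beside 23.5% of all genes. Of these, Perp and Xpc were higher, and Plk2, Phlda3, Zmat3, Gadd45a, Ercc5 and Fas were lower. The unadjusted counts for groups of members below come from the fit without a block. The median change of the members was −0.022, beside 0.0021 over all genes tested, and −0.043, −0.043, 0.041 and −0.080 in mice 1 to 4.

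The sizes of the members' changes lay near those of other genes. Their median absolute change was 0.11 on the log2 scale and that of all genes 0.12. A change smaller than 0.25 in either direction was found for 23 of 30 members (76.7%) and 75.9% of all genes, and one of at least 0.5 for 3 members, Perp, Plk2 and Phlda3, beside 8.49% of all genes. In 4 of 4 mice 4 members were higher (Perp, Xpc, Sesn1 and Sesn2; 15.6% of all genes) and 8 were lower (Gadd45a, Plk2, Phlda3, Zmat3, Fas, Ercc5, Ddb2 and Dcxr; 16.2% of all genes). Groups did not overlap for 1 higher member, Perp, and 1 lower one, Gadd45a, where 7.15% of all genes showed no overlap, 4.25% higher and 2.91% lower.

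**Figure D1:**
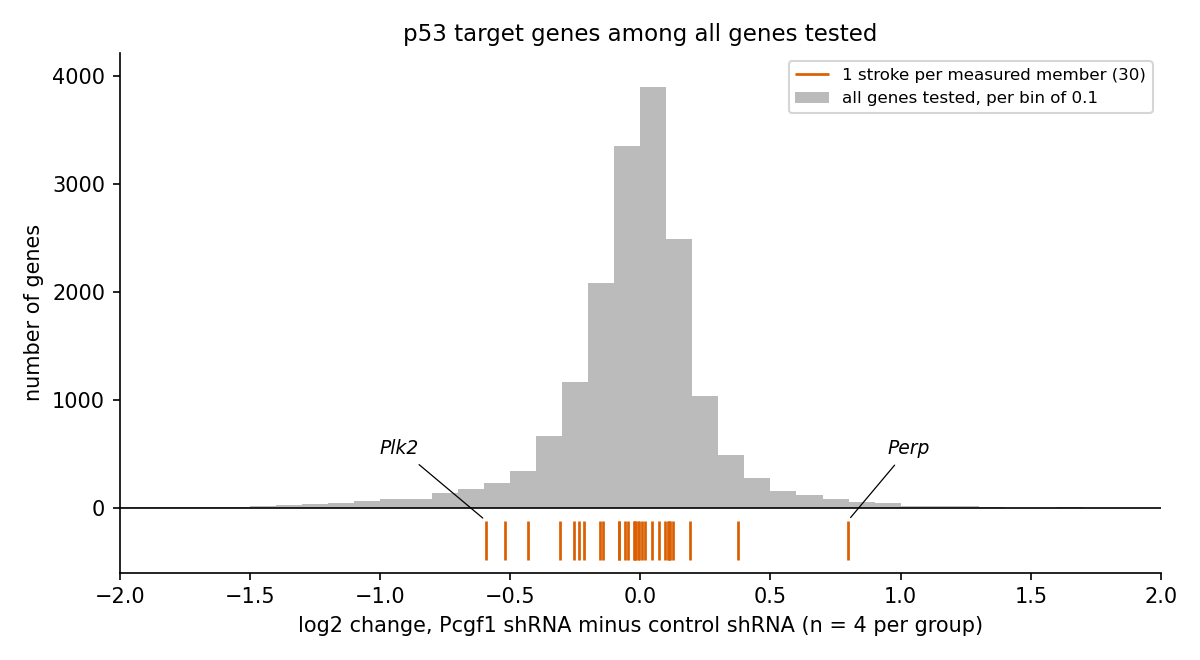
Histogram of the log2 change with the Pcgf1 shRNA for genes with a value on all 8 arrays (grey bars, 17241 genes shown and 20 beyond ±2), with 1 orange stroke below the axis for each of the 30 measured members. The strokes gather around 0 between Plk2 at −0.59 and Perp at 0.80.

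**Figure D2:**
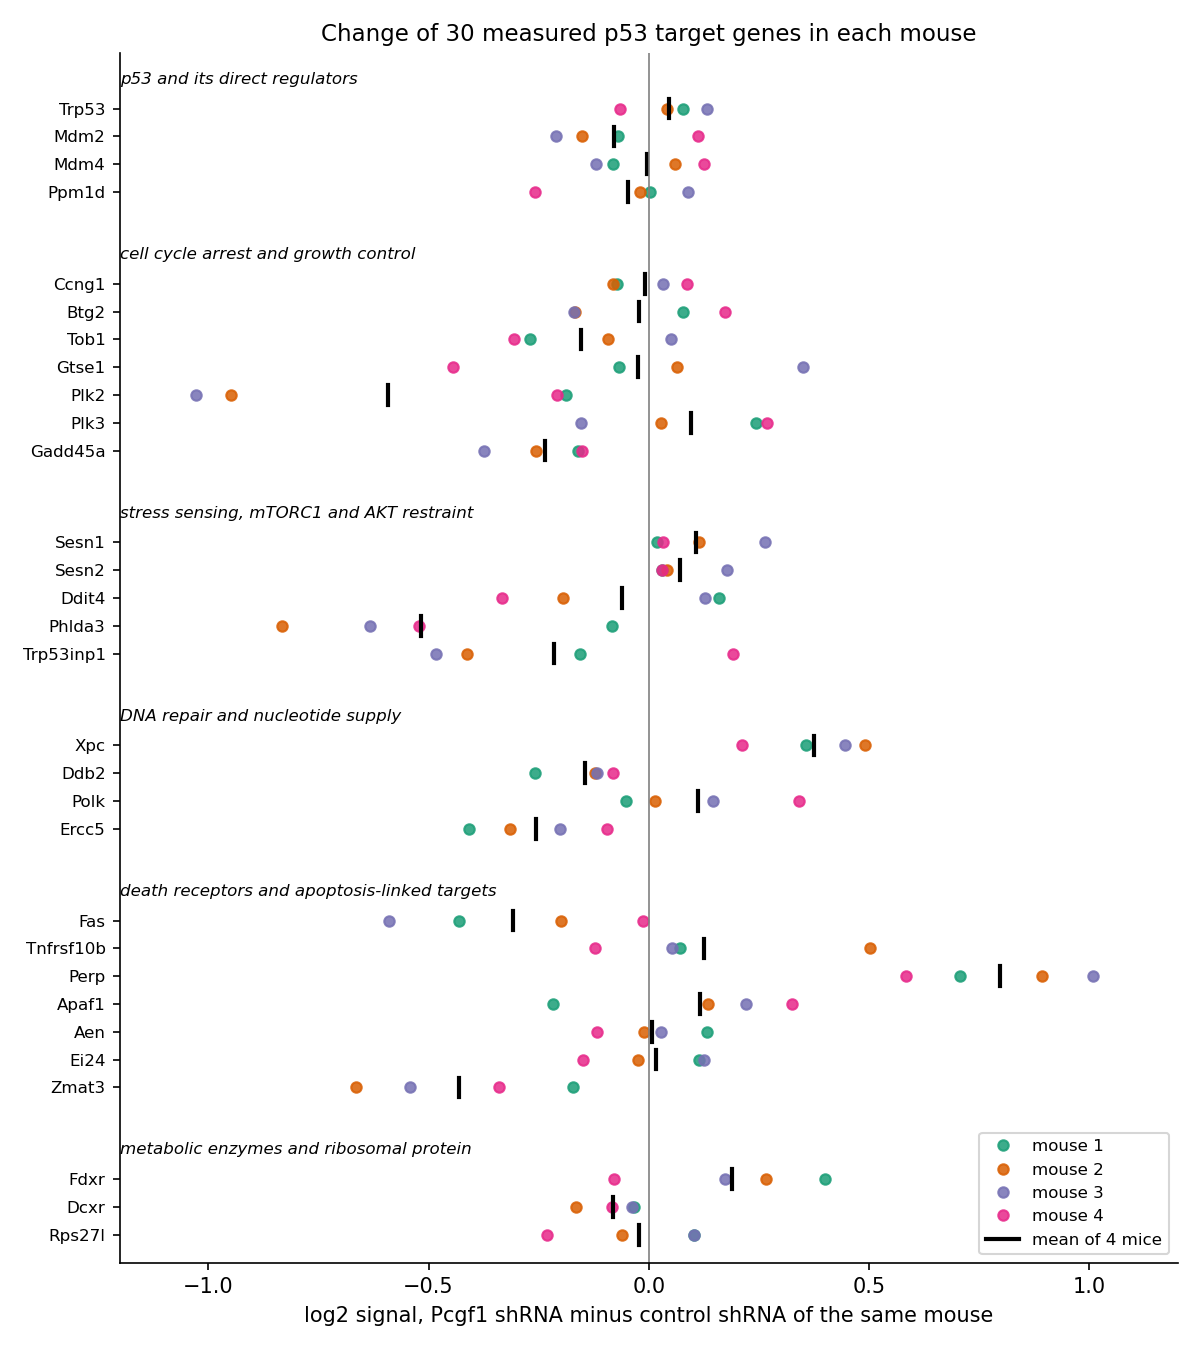
Difference in log2 signal between both cultures of each mouse for the 30 measured members, grouped by role, with 1 coloured point per mouse and a black bar at the mean of the 4 mice. Perp is the member with all 4 points above 0.5, and the points of Trp53, Mdm2, Mdm4, Aen, Ccng1 and Rps27l lie on both sides of 0.

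Trp53 and the genes that hold p53 in check differed little between the groups, and 0 of 4 passed (limma; 0 at an unadjusted p under 0.05). Trp53 (chromosome 11, 69580348 to 69591873, GRCm38.p6) read 0.21, 0.28, 0.086 and 0.21 with the control shRNA in mice 1 to 4 and 0.28, 0.32, 0.22 and 0.15 with the Pcgf1 shRNA. These ranges overlapped, and the change was 0.047 (SE 0.079, 95% interval −0.13 to 0.23, adjusted p 0.867). The other of its 2 probes changed by −0.15, in the opposite direction. Mdm2 (chromosome 10, 117688875 to 117710758), the feedback ligase, read 1.67, 1.54, 1.64 and 1.38 in the control cultures and 1.60, 1.39, 1.43 and 1.49 with the Pcgf1 shRNA. It was lower in 3 of 4 mice and higher in mouse 4, with a change of −0.080 (95% interval −0.29 to 0.13, adjusted p 0.783) and −0.18 on its dimmer probe. Mdm4 changed by −0.0039 (95% interval −0.18 to 0.18), with its dimmer probes at 0.11 and −0.12, and Ppm1d, which encodes the WIP1 phosphatase that switches p53 signalling off, by −0.046 (95% interval −0.25 to 0.16; 0.10 on its dimmer probe). Each of these intervals leaves room for a small change in either direction.

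Of the 7 genes of growth arrest 0 passed (limma; 1 at an unadjusted p under 0.05, Gadd45a), and they differed in how far the mice lay apart. Gadd45a (chromosome 6, 67035096 to 67037407), which encodes a stress protein that binds PCNA and CDK1, read 1.76, 1.79, 1.76 and 1.71 in the control cultures and 1.60, 1.53, 1.38 and 1.56 with the Pcgf1 shRNA. Every culture with the Pcgf1 shRNA lay below every control culture. The change was −0.24 (SE 0.076) and did not pass over all genes (adjusted p 0.263 and, blocked by mouse, 0.128). Plk2, a polo-like kinase gene, had the lowest change of the list. It read −0.53, −0.30, −1.06 and −1.41 in the control cultures and −0.71, −1.25, −2.09 and −1.62 with the Pcgf1 shRNA. The groups overlapped, and the within-mouse differences were −0.19, −0.95, −1.03 and −0.21, with mice 2 and 3 far lower than mice 1 and 4. The mean change of −0.59 (SE 0.33) did not pass (adjusted p 0.537; blocked by mouse, 0.114). Its relative Plk3 changed by 0.096.

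Ccng1, the cyclin G1 gene, stood at 2.68 ± 0.23 and 2.67 ± 0.28 (SD, n = 4 each), a change of −0.0085. The 95% interval was −0.39 to 0.37, or −0.18 to 0.16 blocked by mouse, and its second probe gave −0.14. The antiproliferative genes Btg2 and Tob1 changed by −0.022 and −0.15 (−0.11 and −0.23 on the dimmer probes of Btg2). Gtse1, whose product accumulates in G2 and can restrain p53, changed by −0.024 (95% interval −0.62 to 0.58, or −0.35 to 0.31 blocked by mouse). Both Gtse1 values of mouse 4 were the highest of their group, −3.06 and −3.50, while the other 3 control cultures lay between −4.20 and −4.04. Cell cycle genes outside the list gave no call. Of 11 measured genes of replication and mitosis, among them Ccnb1, Cdk1, Top2a and Pcna, 0 rose and 0 fell (limma; 0 at an unadjusted p under 0.05), and their changes ran from −0.075 to 0.037.

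Among the genes that restrain growth signalling under stress, 0 of 5 passed (limma; 0 at an unadjusted p under 0.05). Phlda3 (chromosome 1, 135766085 to 135769134), which encodes a pleckstrin-homology protein that competes with AKT for membrane lipid, read 2.85, 3.23, 3.01 and 4.02 with the control shRNA and 2.76, 2.40, 2.38 and 3.50 with the Pcgf1 shRNA. It was lower in 4 of 4 mice, with differences of −0.083, −0.83, −0.63 and −0.52 in mice 1 to 4, but mouse 4 stood above the other mice in both cultures and the groups overlapped. The change was −0.52 (SE 0.32, adjusted p 0.578 and, blocked by mouse, 0.0797). Trp53inp1, whose nuclear protein aids the phosphorylation of p53, read 1.98, 2.01, 2.11 and 1.95 in the control cultures and 1.83, 1.60, 1.62 and 2.14 with the Pcgf1 shRNA. It was lower in mice 1, 2 and 3 and higher in mouse 4 (change −0.21, adjusted p 0.559; −0.19 on the dimmer probe). Sestrins inhibit mTORC1 and limit oxidative damage, and both sestrin genes of the list had higher values in 4 of 4 mice, Sesn1 by 0.11 on its brightest probe (0.17 and 0.24 on the dimmer ones) and Sesn2 by 0.070, without passing (adjusted p 0.768 and 0.828). Ddit4, another mTORC1 inhibitor, changed by −0.061.

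Repair genes had values on both sides of zero, and 0 of 4 passed (limma; 1 at an unadjusted p under 0.05, Xpc). Xpc (chromosome 6, 91489305 to 91515888), which encodes the damage sensor that starts global nucleotide excision repair, read 3.17, 2.99, 3.15 and 2.78 in the control cultures and 3.53, 3.48, 3.60 and 2.99 with the Pcgf1 shRNA. Within each mouse it was higher, by 0.36, 0.49, 0.44 and 0.21, while the level of mouse 4 with the Pcgf1 shRNA lay inside the control range. The change was 0.38 (SE 0.15, adjusted p 0.380 and, blocked by mouse, 0.0522). The other Xpc probe gave 0.36. Ddb2, the UV damage binding subunit of the same pathway, changed by −0.14 (adjusted p 0.803) and Ercc5, the XPG endonuclease that cuts the damaged strand, by −0.26 (adjusted p 0.705, 0.128 with the block), each with a lower value in 4 of 4 mice. Polk, a translesion polymerase gene, changed by 0.11.

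Of the 7 measured genes of death signalling 1, Perp, rose and 0 fell (limma; 1 at an unadjusted p under 0.05). Perp (chromosome 10, 18845071 to 18857073) read 0.62, 0.28, 0.23 and 0.40 with the control shRNA in mice 1 to 4 and 1.32, 1.17, 1.24 and 0.98 with the Pcgf1 shRNA. The lowest culture with the Pcgf1 shRNA, that of mouse 4, lay above the highest control culture, that of mouse 1. Perp rose 1.74-fold, from 0.38 ± 0.17 to 1.18 ± 0.14 (SD, n = 4 each), a log2 change of 0.80 (SE 0.11, limma adjusted p 0.0264 and, blocked by mouse, 0.0174). The first slide, with mice 1 and 2, gave a rise of 0.80 and the other slide, with mice 3 and 4, 0.80. When slide was a block the adjusted p was 0.0312, in a fit where 0.907% of all genes passed, 0.63% upward and 0.277% downward. Leaving out both arrays of 1 mouse kept the size, between 0.73 and 0.87, but the call was lost without mouse 1, 2 or 3 (adjusted p 0.123, 0.360 and 0.239) and held without mouse 4 (0.0330). Over all genes 1 rose and 0 fell without mouse 1, 0 passed without mouse 2 and 0 without mouse 3, against 248 that rose and 115 that fell without mouse 4. Pcgf1 itself lost its call without mouse 1, 2 or 3 (adjusted p 0.113, 0.352 and 0.0905). With the block the call of Perp was lost without mouse 1 or 2 (0.0523 and 0.10) and held without mouse 3 or 4 (0.0389 and 0.0483). In those fits 128, 0, 177 and 118 of all genes rose without mice 1, 2, 3 and 4 in turn. Perp also lost its call when dim probes were kept in the test (0.128), where 0 of all genes passed. Perp has 1 probe on the array.

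The other genes of this group did not pass. Zmat3 (chromosome 3, 32334792 to 32365665), which encodes an RNA-binding zinc finger protein and is a tumour-suppressive target of p53, read −0.58, −0.34, −0.31 and 0.41 in the control cultures and −0.75, −1.0, −0.86 and 0.072 with the Pcgf1 shRNA. It was lower in each mouse, with a mean change of −0.43 (SE 0.28, adjusted p 0.599 and, blocked by mouse, 0.0683), and mouse 4 lay above all other cultures in both groups. Fas, the receptor of Fas ligand, changed by −0.31 (adjusted p 0.692 and, blocked by mouse, 0.169). Its lowest control value, 0.49, was in mouse 4, against 1.31 to 1.63 in the other 3. Tnfrsf10b, the mouse TRAIL receptor, changed by 0.13 on its brightest probe and 0.11 on the next. Its dimmest probe, above background on 6 arrays, gave −0.23, in the opposite direction. Apaf1, which assembles the caspase-activating apoptosome, changed by 0.12 (0.050 and 0.19 on dimmer probes). The nuclease gene Aen and the autophagy gene Ei24 changed by 0.0075 and 0.017 (95% intervals −0.24 to 0.25 and −0.49 to 0.53). Blocked by mouse the intervals were −0.17 to 0.19 and −0.18 to 0.21. The dimmer probe of Aen gave −0.070.

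**Figure D3:**
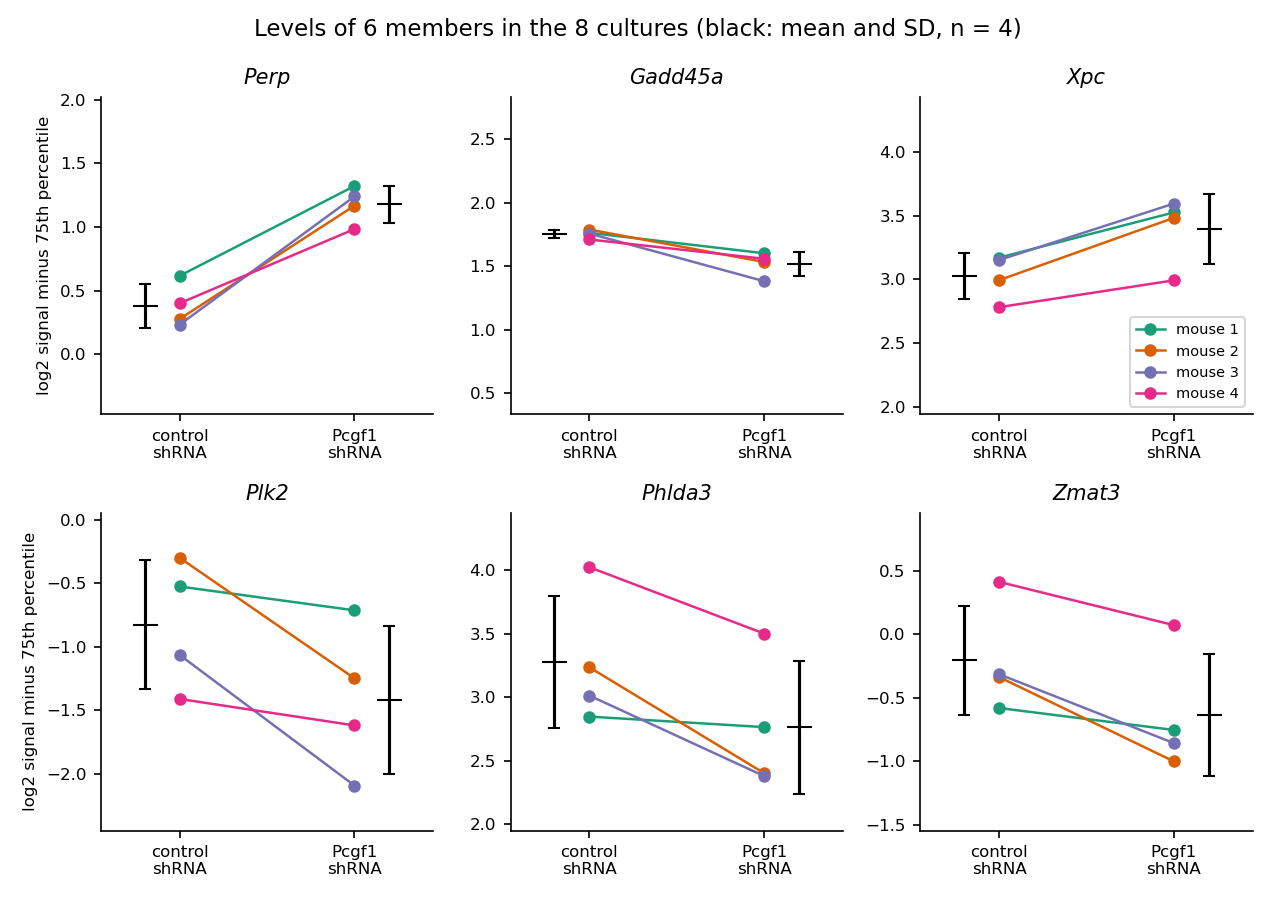
Log2 signal (processed intensity minus the 75th percentile of the array) of 6 members in the control and Pcgf1 shRNA cultures, with a coloured line for each mouse and the mean and SD of 4 cultures in black; each panel spans 2.5 log2 units. Perp and Gadd45a show no overlap between the groups, and the lines of mouse 4 lie above those of the other mice for Phlda3 and Zmat3.

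Of the 3 remaining members 0 passed (limma; 0 at an unadjusted p under 0.05). Fdxr, which encodes ferredoxin reductase of mitochondrial iron-sulfur cluster synthesis, read 1.64, 1.76, 1.74 and 1.92 in the control cultures and 2.04, 2.03, 1.91 and 1.84 with the Pcgf1 shRNA. It was higher in mice 1, 2 and 3 and lower in mouse 4 (change 0.19, SE 0.090, adjusted p 0.456). Dcxr, a carbonyl reductase gene, changed by −0.081 on its brighter probe and 0.20 on the other. Rps27l, a p53-induced relative of a ribosomal protein, stood at 6.31 ± 0.14 and 6.29 ± 0.078 (SD, n = 4 each), with a change of −0.022 and a 95% interval of −0.24 to 0.19.

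Other genes of the pathway were described from lists drawn up alongside the members. Cdkn1a, the p21 gene through which p53 arrests the cell cycle, read 2.83, 2.74, 2.58 and 2.70 in the control cultures and 2.92, 2.60, 2.69 and 2.69 with the Pcgf1 shRNA. Its change was 0.014 (95% interval −0.21 to 0.24, adjusted p 0.972). Of the 6 genes in the list of Cdkn1a and death effectors 0 passed (limma; 1 at an unadjusted p under 0.05). Pmaip1, the BH3-only gene for NOXA, was 0.40 higher and passed with mouse as a block alone (adjusted p 0.272, 0.0471 with the block), while Bbc3, the gene for PUMA, stood at −0.30, Bid at 0.11 and Bax at 0.034. Of 13 measured upstream kinases, cofactors and ligases of p53, 0 passed with or without the block (1 at an unadjusted p under 0.05 without it). The smallest p values were those of Trp53bp1 (0.29), a double-strand break protein, Cdkn2a (−0.43), whose product ARF inhibits MDM2, Prmt5 (0.12) and Chek1 (0.13). The paralogue gene Trp63 was above background on 0 of 8 arrays and Trp73 changed by −0.15.

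Among 22 measured p53 targets outside the 32, 0 passed without a block. At an unadjusted p under 0.05 there were 4, beside 12.2% of all genes. With mouse as a block 1 rose and 1 fell, where 2.91% of all genes rose and 2.41% fell. The targets that passed were Trp53i11 (0.60, adjusted p 0.0475 with the block) and Bcl6 (−0.65, 0.0356). Bcl6 is a repressor gene of germinal centre B cells that myeloid cells also express. Trp53i11 was named after its value was seen. Trp53i11 was well above background on 3 of 4 control arrays and 4 of 4 with the Pcgf1 shRNA, so it entered the test through the group where it was higher, and its signal was near the background. Without a block the smallest p values were those of Cd80 (−0.36), Bcl6, Ephx1 (−0.30) and Tap1 (0.21), in that order. The median change of the list was −0.051. Sesn2 and Ddit4 are also induced by ATF4 in amino acid and endoplasmic reticulum stress. A list of Atf4 itself and ATF4 targets held 9 measured genes, of which 0 passed without a block (2 at an unadjusted p under 0.05). With the block Cebpb fell (−0.35, adjusted p 0.0484, named after its value was seen). Ddit3 stood at −0.51, Psat1 at 0.20, Asns at −0.27 and Slc7a11 at 0.68.

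The mice lay far apart for many members. For 27 of 30 members the range of the 4 mouse means, each over both cultures, was larger than the change with the Pcgf1 shRNA, as it was for 86.3% of all genes. The exceptions were Perp, Gadd45a and Fdxr. Mouse 4 was the highest or lowest of the 4 mice for 75.4% of all genes and 73.3% of the members. It had the highest mean for 15 members (30.8% of all genes) and the lowest for 7 (44.7% of all genes). This mouse was singled out after its values were seen, and no test was made. Its cultures were higher than the mean of the other mice by 0.99 for Phlda3, 0.88 for Zmat3, 0.77 for Gtse1, 0.70 for Ercc5, 0.54 for Btg2, 0.52 for Ddb2 and 0.49 for Ccng1.

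Not every p53 target followed that order. In mice 1 to 4 the mean level of both cultures was 1.64, 1.46, 1.54 and 1.44 for Mdm2 and 2.88, 2.67, 2.63 and 2.70 for Cdkn1a, and neither was highest in mouse 4. Fas was lowest there (1.41, 1.21, 1.18 and 0.49), as were Plk3 and Xpc, with differences from the other mice of −0.78, −0.66 and −0.43. The log2 of the summed signal of the neutrophil markers in mouse 4 was 6.49 with the control shRNA and 3.97 with the Pcgf1 shRNA. Both were the lowest of their group. The monocyte and macrophage sum (5.62 and 5.42) and the mast cell sum (4.92 and 4.97) of mouse 4 were also the lowest of their groups, and its erythroid sum (6.14 and 5.46) was the highest of each. The part of cell makeup in these differences between mice was not tested.

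**Figure D4:**
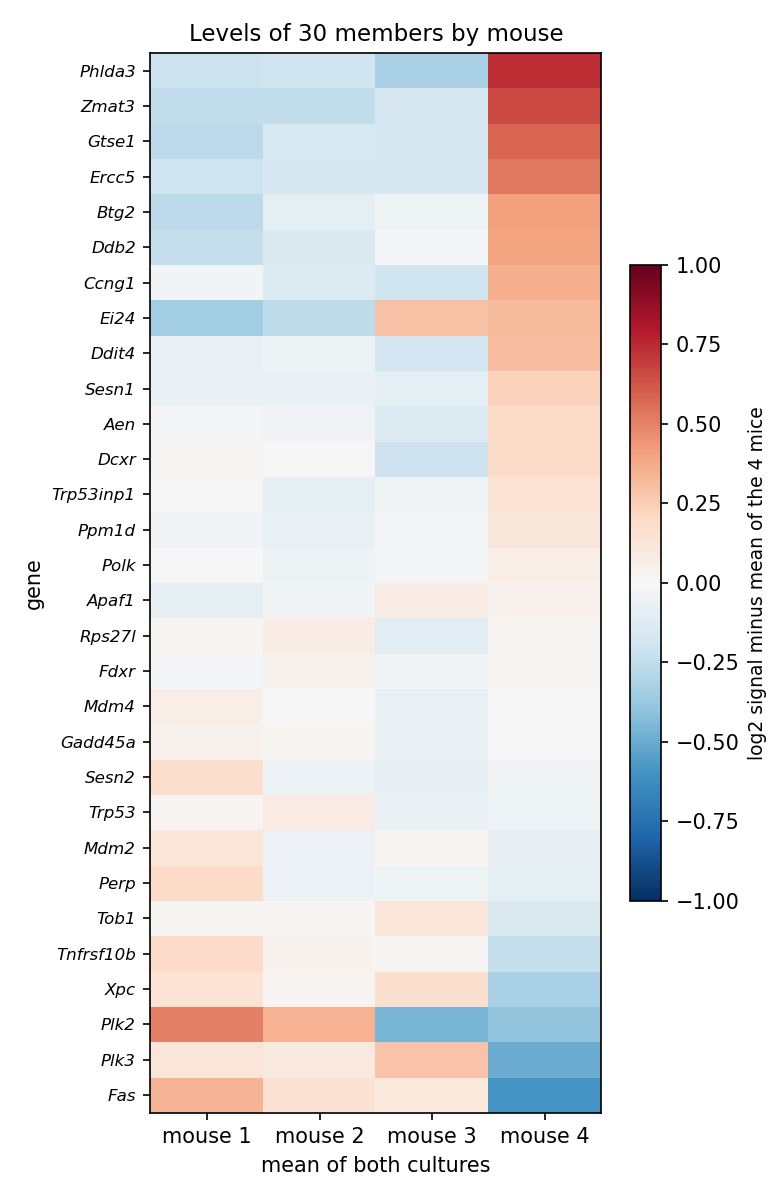
Mean log2 signal of both cultures of each mouse minus the mean of the 4 mice for the 30 measured members, ordered by the value in mouse 4 (red higher, blue lower, limits ±1). Phlda3, Zmat3, Gtse1 and Ercc5 are highest in mouse 4, Fas and Plk3 are lowest there, and Fdxr, Gadd45a, Mdm4 and Trp53 have nearly white rows.

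Changes of members with and without a half-site match in the promoter window covered overlapping ranges. The 11 with a match changed by −0.24 to 0.11 (median −0.0085) and the 13 measured members with a window but no match by −0.59 to 0.19 (median −0.061). Windows of members held a median of 22 CG dinucleotides, those of all genes measured on the arrays 19. These counts describe the sequence and were not tested.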

How the data were processed

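Cy3-labelled RNA (400 ng per culture) was hybridised to 8 one-colour Agilent arrays, read with Agilent Feature Extraction 10.1 per the submitters' processing notes. Per the file headers, the deposited spot intensity is background-subtracted and spatially detrended within an array, with no normalization between arrays. The authors' deposited table of processed values is on a log2 scale, each probe centred on its median over the 8 arrays. Its differences between arrays followed the spot files (r 1.00 over 9284 or more bright probes), which were used for the results. How its low values were treated is not stated. Medians per column came to 0.052, 0.10, 0.11, −0.052, 0.098, −0.11, −0.13 and −0.20 (mice 1 to 4 in turn, each with the control culture first).

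Log2 of the processed signal was shifted so that the 75th percentile of each array was 0. Control spots and 242 non-uniform values were left out, spots of a probe were averaged, and probes well above background on all 4 arrays of a group were kept (22757 of 41174). RefSeq accessions named 24375 probes (GRCm38.p6), and each gene was represented by its probe of highest mean signal. The test was limma's (3.58.1, R 4.3.3), two-sided, over 17310 genes, with no block term. A fit blocked by mouse is given where it bears on a call, because both cultures of a number come from the same animal (r of deviations 0.44, 0.48, 0.41 and 0.64). Mice 1 and 2 shared a slide and scan, as did mice 3 and 4. Alternatives covered the block, slide, quantile normalization, normexp on the median spot signal (the mean is not a column of the files), the filter, the value table, probe averaging and each mouse left out. The fit without a block was run on simulated data with known changes. Noise in them was independent between arrays with no shared mouse effect, so they are no check of the pairing. Members and lists were chosen with earlier results of these data known. Values per culture are given for Trp53, Mdm2, Cdkn1a, any member that passed and the 8 members with the smallest p, and in other lists the 4 with the smallest p are named.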

Additional observations from a re-analysis of the deposited data

Results flagged for a closer look

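In 5 of 62 groups of 4 arrays (30 members and Pcgf1, both shRNAs) 1 array lay far from the other 3. In each case it was an array of mouse 4, which was highest or lowest for 75.4% of all genes. A rate of about 1 in 20 groups would hold for independent, normally distributed values. The groups shared the same 4 mice and no share over all genes was taken, so that rate is no yardstick for the count. With the control shRNA, mouse 4 stood at −0.40 for Ppm1d against −0.71 to −0.67 in the others, at −3.06 for Gtse1 against −4.20 to −4.04, and at −1.06 for Ercc5 against −1.70 to −1.64. With the Pcgf1 shRNA it stood at 1.44 for Btg2 against 0.72 to 0.81 and at −1.16 for Ercc5 against −2.05 to −1.90.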

How the results depend on the processing

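Of 450 recomputed member values (30 genes, 15 alternatives) 409 kept their direction and side of the threshold, 35 changed sign and 6, all of Perp, lost their call; the sign changes were of genes that passed in no setting. Perp kept its call and the count of members that rose stayed at 1 with the replicate block, slide as a block, quantile normalization, normexp, the value table and probe averaging. Without the filter on dim probes 0 members and 0 of all genes passed, with Perp still at 0.80 (adjusted p 0.128) and Pcgf1 at −1.36 (0.104). With both arrays of 1 mouse left out the count of members that rose was 0 or 1, that of members that fell 0, where all genes that passed numbered 1 without mouse 1, 0 without mouse 2 or 3, and 248 higher and 115 lower without mouse 4. Pcgf1 changed by −1.38 to −1.34 (adjusted p 0.0158 to 0.352), and the median of the members by −0.044 to 0.027, positive without mouse 4. Signs changed with quantile normalization for Mdm4 (0.023), Gtse1 (0.072), Aen (−0.0058) and Rps27l (0.020), with normexp for Ccng1 (0.055), and with probe averaging for Trp53 (−0.052), Ppm1d (0.028), Aen (−0.031) and Dcxr (0.059). Leaving out a mouse gave −0.047 to 0.035 for Mdm4, −0.040 to 0.015 for Ccng1, −0.086 to 0.027 for Btg2, −0.034 to 0.049 for Aen, −0.019 to 0.072 for Ei24, −0.092 to 0.024 for Ppm1d, −0.15 to 0.12 for Gtse1, −0.13 to 0.030 for Ddit4 and −0.063 to 0.048 for Rps27l. Without mouse 1, Mdm4 stood at 0.022, Ccng1 at 0.013 and Ei24 at −0.015, each with the sign turned, with or without the block. Over all genes 103 rose and 29 fell, or 503 and 418 with the replicate block, which changed no member's call. The causes of these differences were not tested. Signal over background leaves Rrm2b and Eda2r without a value.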
